A study of Mus musculus with 12 samples.

Results

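The genes described here are 10 heat shock chaperones and helpers of the cytosol and the mitochondrion, taken by gene symbol from a table of 16942 genes: Hspa1a, Hspa1b, Hspa8, Hsph1, Dnajb1, Bag3, Hsp90aa1, Hspd1, Hspe1 and Hspb1. All 10 are in the table, and 9 of 12329 tested genes are theirs, because Hspb1 was too low to be tested. They were picked with earlier results of these libraries known, B+A0 against AOS0 in particular, so the values of that comparison are given as a description only. Small intestine of ICR mice, an outbred strain, gave 12 RNA-seq libraries, 3 in each of 4 treatment groups. Mice of the groups AOS0 and AOS10 had no busulfan and received AOS at 0 or at 10. Those of the groups named B+A0 and B+A10 were given busulfan, again with AOS at 0 or at 10. Busulfan is an alkylating drug that crosslinks DNA, and AOS is an agent for which the labels give 0 or 10 with neither full name, unit nor route. The labels give no sex and state no age; all 12 titles begin with W5, which is not explained. They do not say whether the replicates of a group are separate animals, and every p here therefore reflects the spread among libraries alone.

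Heat shock proteins bind unfolded or newly made proteins and help them fold or be degraded. HSP70 proteins work in cycles with J proteins, which bring the client, and with nucleotide exchange factors, which release it; HSP90 finishes the folding of kinases and receptors, and the HSP60 and HSP10 pair forms a folding chamber in the mitochondrial matrix. When unfolded proteins accumulate, the transcription factor HSF1 binds alternating GAA and TTC units, called heat shock elements, in the promoters of the inducible members. In the gut, cytosolic HSP70 is known as a protective protein of the epithelium.

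Libraries held 13560232 to 16818245 counts. Markers of the small intestinal epithelium were abundant in every library (Vil1 at 525 to 820 FPKM, a read count scaled by transcript length and library size, and Epcam at 713 to 868 FPKM), whereas the 5 smooth muscle markers summed to at most 1.59 FPKM. Summed T and natural killer (NK) cell markers were 152 to 279 FPKM in AOS0, 140 to 177 in AOS10, 33.7 to 92.2 in B+A0 and 83.8 to 238 in B+A10. Of these 11 tested markers, 7 fell in B+A0 against AOS0, where 3.64% of all genes passed in either direction. In B+A10 against AOS10, where only 0.162% of all genes passed, 0 of the 11 did in edgeR (1 at an unadjusted p under 0.05, 0 in DESeq2). The markers, like the 10 genes, were chosen with earlier results known. In RNA from many cell types together, fewer cells of a type and less RNA per cell cannot be told apart.

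The promoters are shown because several of these genes carry the letters HSF1 is known to bind. RefSeq windows (GRCm38.p6) were found for 8 of the 10 genes, 11 windows in all, and the 250 bases before each start were searched on both strands for TTCNNGAA or GAANNTTC, which is a pair of adjoining units. At least 1 match was present in 6 of the 8 genes (Hspa1a, Hspa1b, Hsph1, Hspd1, Hspe1, Hspb1), against 12.8% of all 32851 windows and 14.5% of 27025 genes. No match was in the windows of Dnajb1 or Bag3. A run of at least 3 adjoining units, each pair of neighbours in opposite orientation, was present in a window of Hspd1 and of Hspe1, against 0.514% of all genes with a window. For Hspd1 it lies before the RefSeq start at 55087932, and the window of the other start, at 55088243, holds no match. Measured from that other start, the run lies inside the gene. A CCAAT box, which is bound by NF-Y, was present in 4 of the 8 genes (Hspa1a, Hspa1b, Hsph1, Dnajb1), against 37.5% of all genes with a window, and TATAAA in 0 of the 8, against 14.3%. In the sequences below, written 5′ to 3′ along each gene, capitals mark TTCNNGAA or GAANNTTC. The 2 inducible HSP70 genes come first, with the 250 bases upstream of each (chr17:34972157-34972406 and chr17:34959239-34959488, both on the minus strand):
Hspa1a: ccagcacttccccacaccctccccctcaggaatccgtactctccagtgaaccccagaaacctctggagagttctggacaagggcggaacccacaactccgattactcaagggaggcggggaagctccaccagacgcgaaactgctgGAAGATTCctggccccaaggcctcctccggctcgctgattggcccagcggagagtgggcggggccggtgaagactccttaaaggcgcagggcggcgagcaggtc
Hspa1b: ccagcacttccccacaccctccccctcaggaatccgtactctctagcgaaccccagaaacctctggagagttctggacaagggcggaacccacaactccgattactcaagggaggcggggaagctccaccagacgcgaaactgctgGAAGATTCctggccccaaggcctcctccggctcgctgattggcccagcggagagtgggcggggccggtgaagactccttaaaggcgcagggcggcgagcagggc
These upstream stretches are identical at 247 of 250 positions, and both hold GAAGATTC 97 to 104 bases before the start. The substitutions from Hspa1a to Hspa1b, counted from the first base shown, are C44T, T47C and T249G. Of the remaining genes, 30 bases around the matches are shown, for Hsph1 on the minus strand (chr5:149636351-149636380), for the shared Hspd1 and Hspe1 promoter on the plus strand (chr1:55088053-55088082) and for Hspb1 on the plus strand (chr5:135887801-135887830):
Hsph1: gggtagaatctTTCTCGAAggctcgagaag
Hspd1-Hspe1: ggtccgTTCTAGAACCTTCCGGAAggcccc
Hspb1: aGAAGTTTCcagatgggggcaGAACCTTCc
Hspd1 and Hspe1 are transcribed away from each other, so the same 18 bases, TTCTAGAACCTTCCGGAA, with 3 overlapping matches, lie 35 bases from the start of the Hspd1 transcript and 56 bases from that of the Hspe1 transcript in the GENCODE M21 basic set. They were counted once for each gene, as were the GAAGATTC and the CCAAT box that Hspa1a and Hspa1b share. The counts of genes above are therefore not counts of independent sequences. A match is a description of letters and not evidence that HSF1 was bound in this tissue.

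Without busulfan the constitutive HSP70, Hspa8, was by far the most abundant of the 10 transcripts per length, at 1105 ± 88.6 FPKM in AOS0 (SD, n = 3). The mitochondrial pair followed, with Hspe1 at 252 ± 21.5 and Hspd1 at 244 ± 34.8 FPKM, a difference within the spread between replicates. Hsp90aa1 was at 122 ± 15.2 FPKM and Hspa1b at 60.8 ± 15 FPKM. Bag3 (32.7 ± 2.52), Hsph1 (31.3 ± 6.70), Dnajb1 (29.6 ± 3.03) and Hspa1a (27.6 ± 10.9 FPKM) lay within each other's spread, and Hspb1 was close to nothing at 0.25 ± 0.277 FPKM. In B+A10 the order was different. Hspa8 led at 2172 ± 348 FPKM, and Hspa1b came next at 361 ± 155 FPKM, a mean above Hspe1 (323 ± 72.1), Hspd1 (318 ± 83.5) and Hsp90aa1 (239 ± 104 FPKM) but within their spread. Hsph1 (171 ± 60.1) and Hspa1a (151 ± 67.8 FPKM) then stood above Bag3 (72.4 ± 15.9) and Dnajb1 (67.6 ± 19.0 FPKM). Together the 10 genes took 0.330% to 0.433% of all counts in the 6 libraries without busulfan and 0.565% to 0.932% in the 6 with it.

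**Figure D1:**
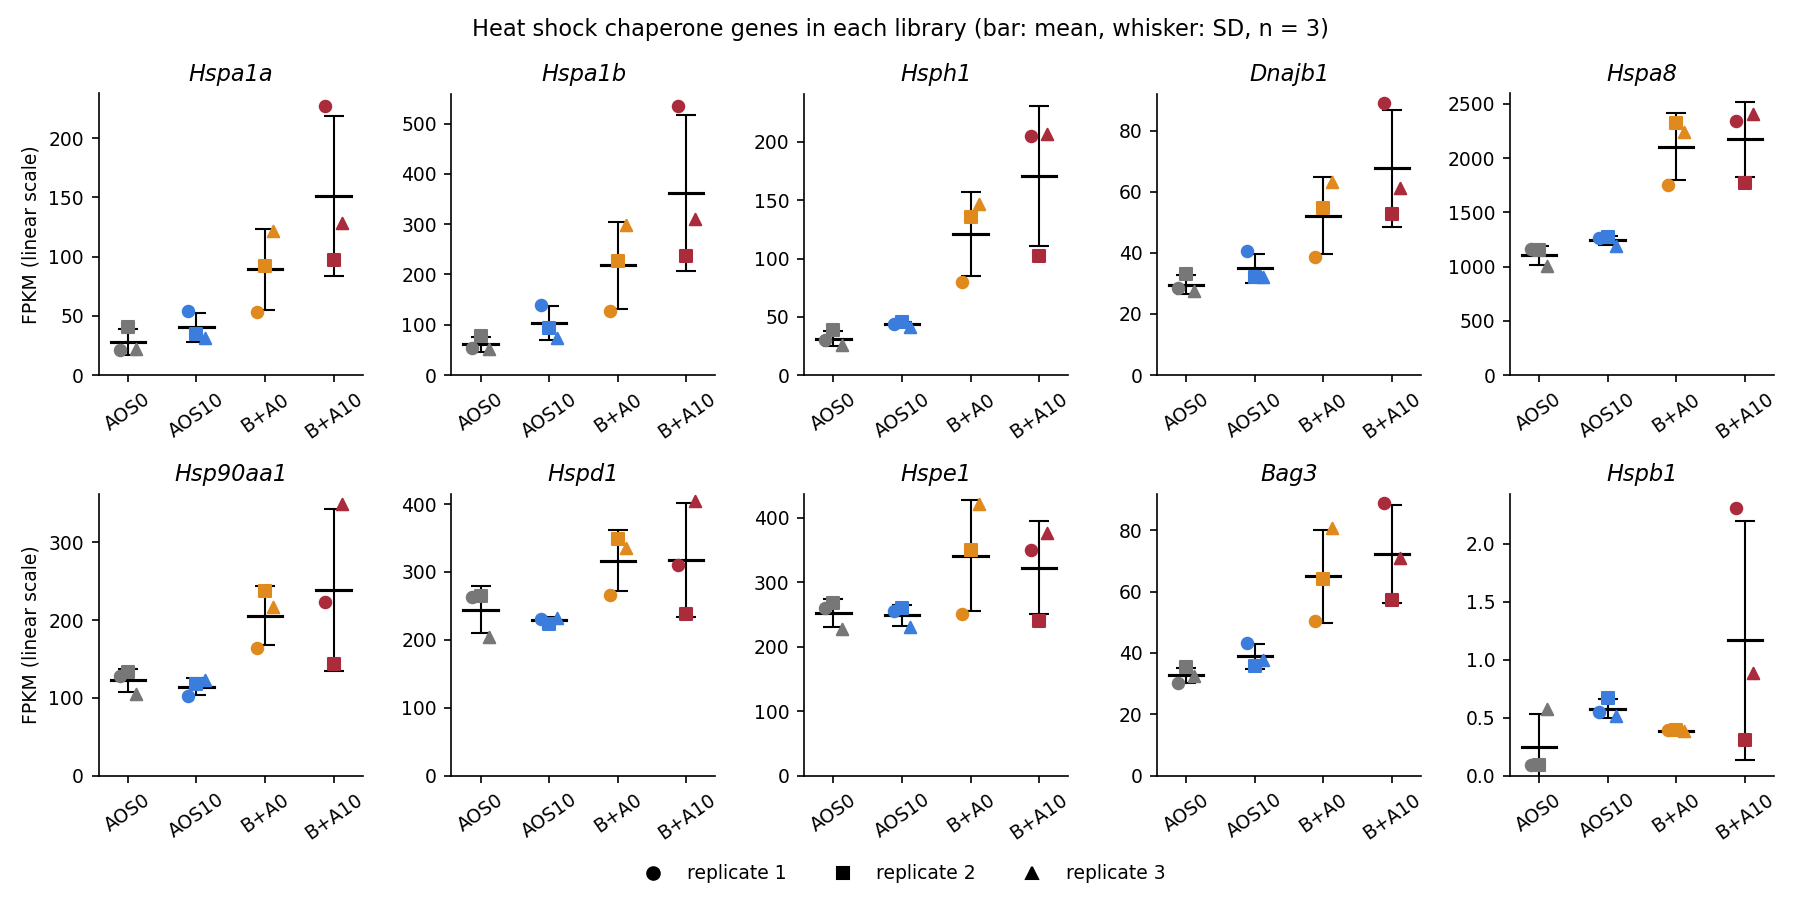
FPKM of each of the 10 genes (linear vertical axes starting at 0) in each of the 12 libraries, by group, with the mean and SD (n = 3); symbols mark replicate numbers. Hsph1 lies at 25.6 to 45.6 FPKM in the libraries without busulfan and at 80.3 to 207 FPKM in those with it, and Hspb1 stays at or under 2.31 FPKM.

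The comparison of B+A10 with AOS10 asks what busulfan is associated with in mice that all received AOS 10, and its 6 libraries are not those of B+A0 against AOS0. Results of all 4 groups were known when the genes were picked, so this comparison is not free of that choice. All 9 tested genes had a higher estimate in B+A10, and 2 of them rose past an adjusted p of 0.05 in edgeR's quasi-likelihood test: Hsph1, the HSP110 exchange factor, and Hspa8. Over all 12329 genes, 0.162% passed this test and 0.146% passed it upward; Hsph1 and Hspa8 ranked 2 and 3 of all genes by p. The median log2 difference of the 9 genes was 0.96, against 0.0035 over all genes tested. The groups did not overlap, with B+A10 higher, in 8 of the 9 genes, against 7.97% of all genes. The 2 calls rest on few libraries: none passed when any AOS10 library, replicate 2 of B+A0 or replicate 1 of B+A10 was left out. The count was 1 when replicate 2 of AOS0, 5 when replicate 1 of B+A0 and 7 when replicate 2 of B+A10 was left out. DESeq2 called 7 of the 9, edgeR with no filter on low counts called 6, and fits to these 6 libraries alone or limma on log2(FPKM + 1) called 0.

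**Figure D2:**
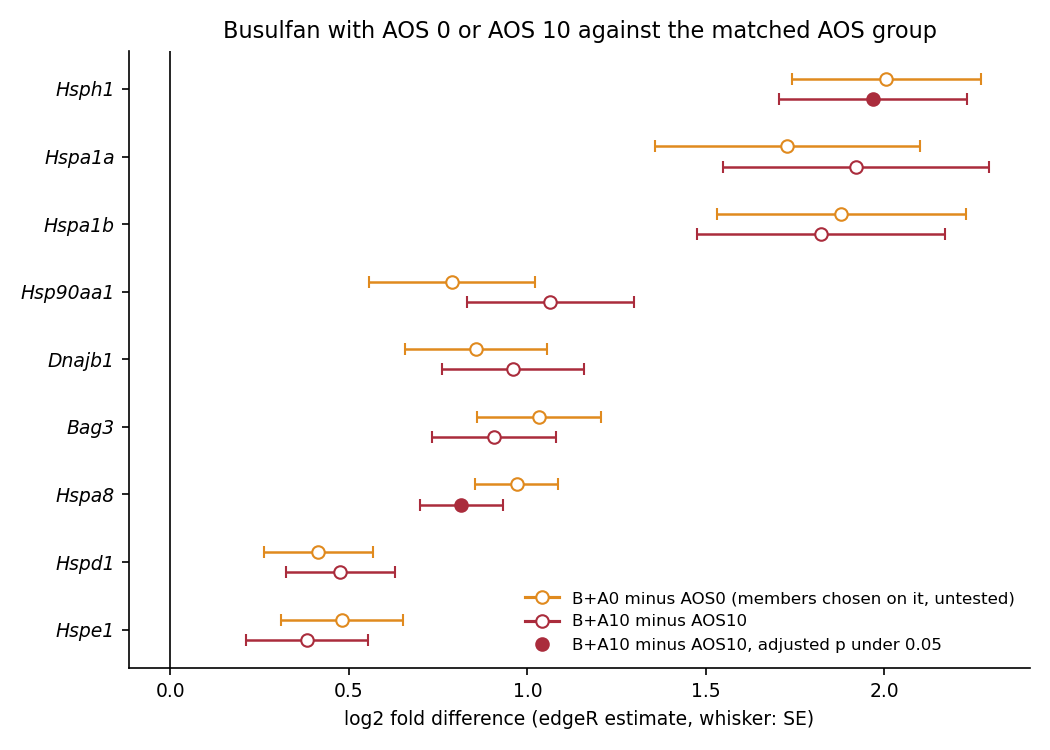
Log2 fold differences with their SE (edgeR, horizontal axis, 0 means no difference) of the 9 tested genes for B+A10 minus AOS10 and for B+A0 minus AOS0, the comparison on which the genes were chosen. Filled points passed an adjusted p of 0.05 in B+A10 minus AOS10; Hsph1, Hspa1a and Hspa1b lie between 1.73 and 2.01 in both comparisons, and Hspd1 and Hspe1 between 0.38 and 0.48.

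Hsph1 (gene ID 15505, chr5:149616843-149636498) encodes HSP110, which recharges HSP70 with ATP and holds unfolded clients. Its FPKM was 29.7, 38.7 and 25.6 in AOS0 replicates 1 to 3, and 43.7, 45.6 and 41.5 in AOS10. It was 80.3, 136 and 147 in B+A0, and 205, 102 and 207 in B+A10. All 6 busulfan libraries lay above all 6 others, B+A0 replicate 1 and B+A10 replicate 2 were the low ones of their groups, and all AOS10 libraries lay above all AOS0 libraries. The log2 difference of B+A10 from AOS10 was 1.97 (SE 0.26; 3.91-fold; adjusted p = 0.0274, edgeR). In B+A0 it was 2.01 above AOS0.

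Hspa1a (gene ID 193740, chr17:34969359-34972156) and Hspa1b (gene ID 15511, chr17:34956429-34959238) are the stress-inducible cytosolic HSP70 genes, neighbours 10120 bases apart. Their coding sequences are 99.4% identical, with a shared run of 638 bases, so the counting may have split reads between them and neither value is certain on its own. Hspa1b had 52.9, 78.1 and 51.3 FPKM in AOS0, and 140, 94.0 and 74.5 in AOS10. It had 128, 226 and 299 FPKM in B+A0, and 535, 238 and 311 in B+A10. The highest AOS10 library, replicate 1, lay above the lowest B+A0 library, and within each AOS level the busulfan libraries were all above the others. Hspa1a showed the same order in FPKM, with 20.8, 40.2 and 21.9 FPKM in AOS0, 54.2, 34.8 and 31.6 in AOS10, 53.7, 92.2 and 122 in B+A0, and 227, 97.4 and 129 in B+A10. In CPM (counts scaled to library size) its AOS10 replicate 1, at 145, lay just below B+A0 replicate 1, at 148. In B+A10 against AOS10 the log2 difference was 1.92 for Hspa1a (SE 0.37) and 1.82 for Hspa1b (SE 0.35), each with an adjusted p of 0.0719 in edgeR. Summing the counts of both genes, which no split of reads between them can alter, gave 1.85 (adjusted p = 0.0717, edgeR). The ratio of Hspa1b to Hspa1a FPKM was 2.28 ± 0.308 in AOS0, 2.55 ± 0.172 in AOS10, 2.43 ± 0.0368 in B+A0 and 2.40 ± 0.0431 in B+A10 (SD, n = 3), and these ranges overlapped between AOS levels and between busulfan states.

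Hspa8 (gene ID 15481, chr9:40801276-40805202) encodes HSC70, the constitutive HSP70 that folds new proteins and uncoats clathrin vesicles. It had 1159, 1155 and 1003 FPKM in AOS0, and 1264, 1269 and 1190 in AOS10. It had 1756, 2325 and 2240 FPKM in B+A0, and 2339, 1773 and 2405 in B+A10. The busulfan libraries did not overlap the others, and the AOS10 libraries lay just above the AOS0 libraries. The log2 difference of B+A10 from AOS10 was 0.82 (SE 0.12; 1.76-fold; adjusted p = 0.0274, edgeR), the smaller of the 2 calls in fold but from the more abundant transcript. Because Hspa1a and Hspa1b differed by a larger factor than Hspa8, their summed FPKM went from 7.97% ± 2.03 of that of Hspa8 in AOS0 and 11.5% ± 3.42 in AOS10 to 14.3% ± 4.24 in B+A0 and 23.3% ± 8.10 in B+A10 (SD, n = 3). The B+A10 libraries (18.3% to 32.6%) lay above the AOS10 libraries (8.91% to 15.3%).

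Dnajb1 (gene ID 81489, chr8:83608175-83612653) encodes HSP40, the J protein that hands clients to HSP70. It had 28.4, 33.0 and 27.4 FPKM in AOS0, 40.5, 32.2 and 32.2 in AOS10, 38.6, 54.7 and 63.2 in B+A0, and 89.0, 52.6 and 61.1 in B+A10. The highest AOS10 library lay above the lowest B+A0 library, while B+A10 and AOS10 did not overlap. Its log2 difference of B+A10 from AOS10 was 0.96 (SE 0.20; adjusted p = 0.0903, edgeR). Bag3 (gene ID 29810, chr7:128523583-128546981) encodes a cochaperone that releases clients from HSP70 and directs them to autophagy. It had 30.2, 35.3 and 32.6 FPKM in AOS0, 43.2, 35.6 and 37.7 in AOS10, 50.4, 64.1 and 80.7 in B+A0, and 88.9, 57.1 and 71.1 in B+A10. The busulfan libraries were all above the others. Its log2 difference of B+A10 from AOS10 was 0.91 (SE 0.17; adjusted p = 0.0719, edgeR).

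Hsp90aa1 (gene ID 15519, chr12:110691036-110696395) is the more inducible of the cytosolic HSP90 genes. It had 128, 134 and 105 FPKM in AOS0, and 102, 117 and 123 in AOS10. It had 164, 237 and 216 FPKM in B+A0, and 223, 143 and 350 in B+A10. All busulfan libraries lay above all others, with B+A10 replicate 3 the highest and replicate 2 the lowest of them. The log2 difference of B+A10 from AOS10 was 1.06 (SE 0.23; adjusted p = 0.116, edgeR). Its constitutive partner Hsp90ab1, with 869.7 to 1056 FPKM in the libraries without busulfan, was 1104 to 1575 FPKM in those with it, and its log2 difference of B+A10 from AOS10 was 0.47 (adjusted p = 0.24, edgeR). The ratio of Hsp90aa1 to Hsp90ab1 was 0.129 ± 0.00877 in AOS0, 0.118 ± 0.0226 in AOS10, 0.152 ± 0.0196 in B+A0 and 0.175 ± 0.0676 in B+A10 (SD, n = 3). The last of these rests on replicate 3, at 0.253, with replicates 1 and 2 at 0.143 and 0.129.

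**Figure D3:**
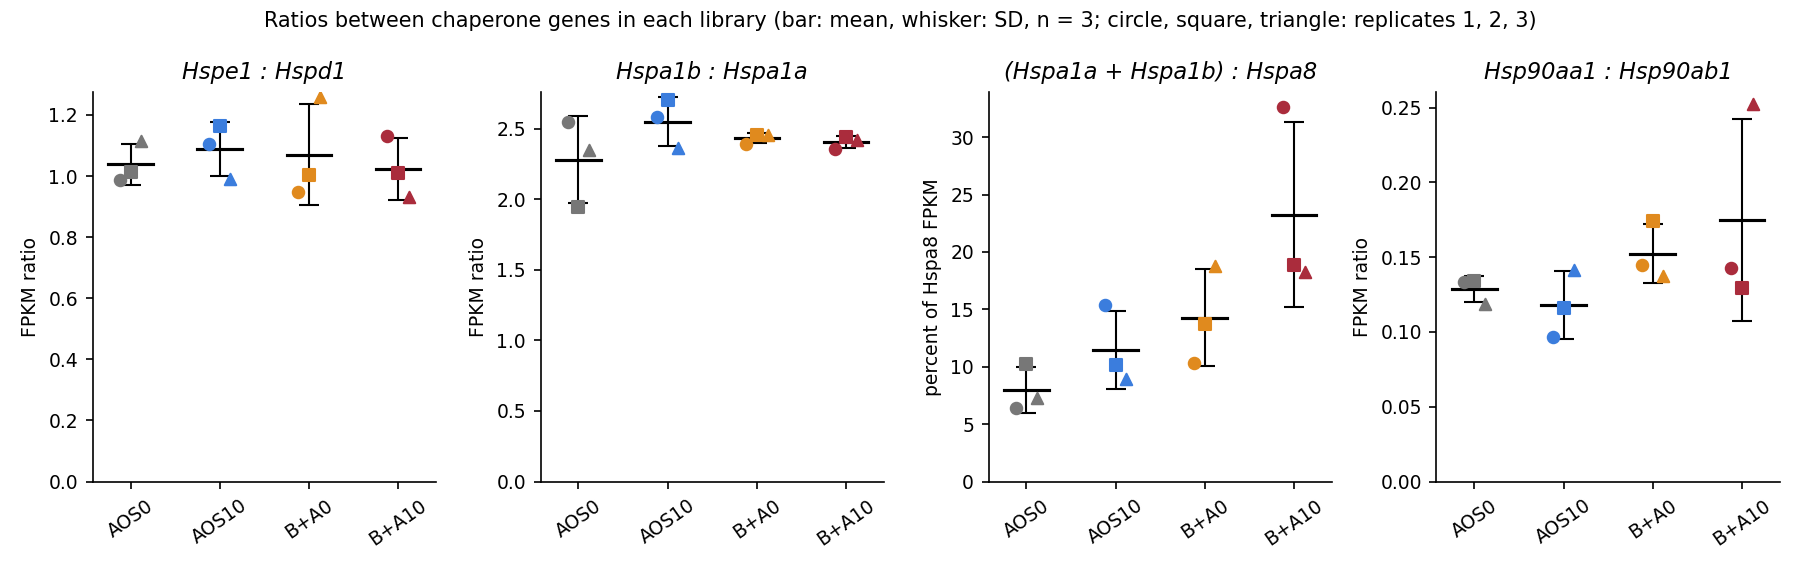
Ratios of FPKM between pairs of chaperone genes in each library (linear vertical axes starting at 0), by group, with the mean and SD (n = 3). Hspe1 to Hspd1 stays between 0.930 and 1.26 in all 12 libraries, whereas Hspa1a plus Hspa1b ranges from 6.36% to 32.6% of Hspa8.

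The mitochondrial chaperonin Hspd1 (HSP60, gene ID 15510, chr1:55077833-55088243) and its lid Hspe1 (HSP10, gene ID 15528, chr1:55088148-55091317) differed least between groups. Hspd1 had 263, 265 and 204 FPKM in AOS0, 231, 224 and 233 in AOS10, 266, 349 and 336 in B+A0, and 310, 239 and 405 in B+A10. Hspe1 had 260.0, 268 and 228 FPKM in AOS0, 255, 261 and 231 in AOS10, 251, 350.5 and 422 in B+A0, and 351, 241 and 377 in B+A10. For Hspe1 both busulfan groups overlapped the matched group without busulfan, through B+A0 replicate 1 and B+A10 replicate 2. The log2 difference of B+A10 from AOS10 was 0.48 for Hspd1 (SE 0.15; adjusted p = 0.295) and 0.38 for Hspe1 (SE 0.17; adjusted p = 0.47, edgeR). The 2 transcripts, which share a promoter region, had close to equal levels per length: the ratio of Hspe1 to Hspd1 was 1.04 ± 0.0682 in AOS0, 1.09 ± 0.0882 in AOS10, 1.07 ± 0.165 in B+A0 and 1.02 ± 0.102 in B+A10 (SD, n = 3).

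Hspb1 (HSP27, gene ID 15507, chr5:135887919-135889563), a small heat shock protein that holds unfolded proteins and stabilises actin, had only 1 to 30 counts a library. Its FPKM was 0.09, 0.09 and 0.57 in AOS0, 0.55, 0.67 and 0.51 in AOS10, 0.39, 0.39 and 0.38 in B+A0, and 2.31, 0.31 and 0.88 in B+A10. No test was made, and B+A10 replicate 1 alone was above 1 FPKM. Of 6 other small heat shock proteins, 4 were among the deposited genes and 1 of these was high enough to be tested, Hspb6 at 2.42 to 5.0 FPKM.

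In the comparison on which the genes were chosen, B+A0 with AOS0, all 9 tested genes had a higher estimate, from 0.42 (Hspd1) to 2.01 (Hsph1) on the log2 scale. The others were 0.48 for Hspe1, 0.79 for Hsp90aa1, 0.86 for Dnajb1, 0.97 for Hspa8, 1.03 for Bag3, 1.73 for Hspa1a and 1.88 for Hspa1b. The number past the threshold was 6 of 9, where 3.64% of all genes passed, 1.7% upward; since the genes were picked here, nothing is read from this count. The interaction, (B+A10 minus AOS10) minus (B+A0 minus AOS0), holds the same libraries and ranged from -0.16 (Hspa8) to 0.28 (Hsp90aa1), with SE of 0.16 and 0.33. None of the 9 genes passed the edgeR test of the interaction (0 at an unadjusted p under 0.05, 0 in DESeq2; 0% of all genes in edgeR), which does not show that the differences were equal.

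The AOS comparisons were smaller. In AOS10 against AOS0, whose AOS0 libraries took part in the choice, the log2 difference was 0.79 for Hspa1b (SE 0.34), 0.57 for Hspa1a (SE 0.37), 0.54 for Hsph1 (SE 0.26), 0.28 for Bag3 (SE 0.17), 0.28 for Dnajb1 (SE 0.20) and 0.20 for Hspa8 (SE 0.12). It was 0.018 for Hspe1, -0.06 for Hspd1 and -0.06 for Hsp90aa1, which made 7 of the 9 estimates above 0 and 2 below. None of the 9 genes passed the edgeR test, 1 (Hspa1b) had an unadjusted p under 0.05, and DESeq2 called 0; of all genes 0% passed in edgeR. The groups did not overlap for Hsph1, Hspa8 and Bag3, 3 of 9, against 11% of all genes in this direction. In B+A10 against B+A0, the log2 difference was 0.77 for Hspa1a (SE 0.36), 0.74 for Hspa1b (SE 0.34), 0.50 for Hsph1 (SE 0.25) and 0.38 for Dnajb1 (SE 0.20). It was 0.21 for Hsp90aa1, 0.16 for Bag3, 0.047 for Hspa8, 0.0046 for Hspd1 and -0.08 for Hspe1, so that 8 estimates were above 0 and 1 below. The groups overlapped for all 9 genes, where 10.2% of all genes did not overlap in either direction. None passed in edgeR (1 at an unadjusted p under 0.05, 0 in DESeq2), and 0% of all genes did. The comparison of B+A10 with AOS0, which differ in both treatments and in which 0.957% of all genes passed, gave 2.61 for Hspa1b, 2.50 for Hsph1, 2.49 for Hspa1a, 1.24 for Dnajb1, 1.19 for Bag3, 1.02 for Hspa8, 1.00 for Hsp90aa1, 0.42 for Hspd1 and 0.40 for Hspe1. There 6 of the 9 passed upward in edgeR, against 0.754% of all genes, and DESeq2 called 7. Hsp90aa1, Hspd1 and Hspe1 did not pass in edgeR. These comparisons share the AOS0 or the B+A0 libraries with the one that chose the genes, so they are not independent of it.

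**Figure D4:**
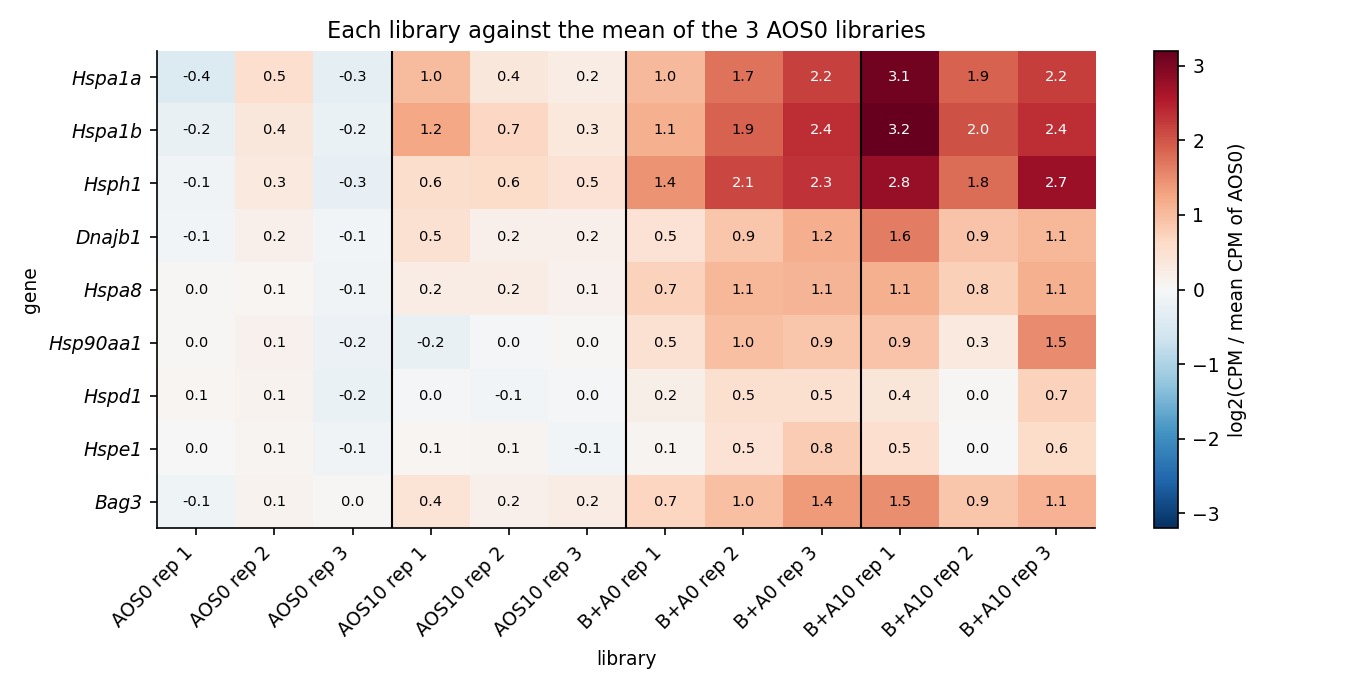
Log2 ratio of each library's CPM (counts scaled to library size) to the mean of the 3 AOS0 libraries for the 9 tested genes (rows) in the 12 libraries (columns, grouped by treatment); red is higher and blue lower. Values reach 3.19 for Hspa1b in B+A10 replicate 1, and B+A0 replicate 1 and B+A10 replicate 2 are paler than the other libraries of their groups.

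Within 3 of the 4 groups, 1 library stood at the same end for all 9 genes. AOS0 replicate 2 was the highest AOS0 library for 9 of 9 genes in CPM, B+A0 replicate 1 the lowest B+A0 library for 9 of 9, and B+A10 replicate 2 the lowest B+A10 library for 9 of 9. B+A10 replicate 1 was the highest of all 12 libraries for 6 of the 9 genes. In both busulfan groups, the library with the lowest chaperone levels had the highest T and NK cell and epithelial marker sums. Summed T and NK cell markers were 92.2 FPKM in B+A0 replicate 1, against 55.9 and 33.7 in its replicates 2 and 3, and 238 FPKM in B+A10 replicate 2, against 83.8 and 126 in replicates 1 and 3. The 8 epithelial markers summed to 8532 FPKM in B+A0 replicate 1, against 4604 and 4723, and to 8670 FPKM in B+A10 replicate 2, against 6884 and 6235. AOS0 replicate 2, the highest of its group in chaperones, had the lowest T and NK sum there (152 FPKM, against 279 and 256). Its epithelial sum was nevertheless the highest of AOS0 (8179 FPKM, against 7244 and 7595). Summed mast cell markers were 55.7 to 146 FPKM in AOS0, 55.9 to 88.8 in AOS10, 13.0 to 18.2 in B+A0 and 14.9 to 40.7 in B+A10; here B+A0 replicate 1 was the lowest of its group and B+A10 replicate 2 the highest. The part of cell makeup in the chaperone differences was not tested. Summed immediate early genes, which answer handling and injury within minutes, were 181 to 205 FPKM in AOS0, 179 to 277 in AOS10, 163 to 223 in B+A0, and 568, 355 and 185 in B+A10 replicates 1 to 3; their part was not tested. Egr1 alone of these 12 genes passed upward in B+A10 against AOS10 (log2 difference 4.29, adjusted p = 0.0332, edgeR), against 0.146% of all genes. There 4 of the 12 had an unadjusted p under 0.05 in edgeR, and DESeq2 called 1. In B+A0 against AOS0, where 3.64% of all genes passed, 0 of 12 did in edgeR (0 at an unadjusted p under 0.05, 0 in DESeq2).

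Per library, the gene that followed the mean of the other tested members most closely was Hsph1 (Pearson r = 0.986 over 12 libraries), and Hspd1 did so least (r = 0.867). Among 11629 other genes averaging 1 CPM or more, the most alike to the mean profile of the 9 genes were Ubqln1 (r = 0.985), Stip1 (0.980), Helz (0.977), Slc5a3 (0.977), Ahsa1 (0.975), St13 (0.973), Foxk2 (0.972) and Uspl1 (0.969). These correlations describe likeness only, since all of them run over the same 12 libraries in 4 groups. Stip1 (HOP, which bridges HSP70 and HSP90), Ahsa1 (which activates the HSP90 ATPase) and St13 (HIP, which steadies HSP70) are HSP90 or HSP70 cochaperones. Ubqln1 is a ubiquilin that shuttles ubiquitinated proteins, and Slc5a3 is the myo-inositol transporter. Foxk2 is a forkhead transcription factor and Helz an RNA helicase. Their log2 differences of B+A10 from AOS10 were 0.26 for Ubqln1, 0.80 for Stip1, 0.27 for Helz, 0.94 for Slc5a3, 0.64 for Ahsa1, 0.49 for St13, 0.47 for Foxk2 and 0.54 for Uspl1; of the 8, Stip1 passed the test.

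Beyond these 10, 78 further genes of the heat shock pathway were listed by role, with earlier results of these data known, and 72 of them were tested. In B+A10 against AOS10, 2 of the 72 rose and 0 fell, against 0.146% of all genes upward; 54 estimates were above 0, with a median of 0.11. The log2 rise was 0.80 for Stip1 and 1.27 for Hspa4l, another HSP110 protein (adjusted p = 0.0451 each, edgeR). Stip1 had 108, 104 and 96.0 FPKM in AOS10, and 208, 139 and 186 in B+A10. Hspa4l had 5.32, 5.97 and 5.61 FPKM in AOS10, and 13.6, 9.25 and 19.7 in B+A10. Neither group pair overlapped, and B+A10 replicate 2 was again the lowest of its group for both genes. Leaving out any AOS0 or AOS10 library, replicate 2 or 3 of B+A0 or replicate 1 of B+A10 gave 0 calls. With replicate 3 of B+A10 left out 1 gene passed, with replicate 2 left out 7 passed, and DESeq2 called 8.

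In B+A0 against AOS0, 10 of the 72 were higher past the threshold and 0 lower, against 1.7% of all genes upward. Because these lists too were made with earlier results known, the count is a description only. HSP90 and its cochaperones held 4 of the 10 among 14 tested genes: Chordc1 (1.06), Stip1 (0.83), Ahsa1 (0.74) and Hsp90ab1 (0.56). Among 9 other cytosolic J proteins, Dnaja1 (0.91) and Dnajb2 (0.65) passed. Hspa4l (0.90) was 1 of 11 in the other HSP70 and HSP110 list, Serpinh1, the collagen chaperone HSP47 (1.39, from 0.59 to 0.62 FPKM in AOS0), 1 of 9 other heat-inducible genes, Cct7 (0.35) 1 of 14 subunits of the cytosolic chaperonin TRiC and prefoldin, and Hsf1 itself (0.41) 1 of 3 tested genes of the HSF family and its regulators. With 1 library left out the count was 0 for replicates 1 and 3 of AOS0 and replicate 3 of B+A0, 3 to 5 for replicate 2 of AOS0, replicates 2 and 3 of AOS10 and replicate 2 of B+A0, and 18 for replicate 1 of B+A0 and replicate 3 of B+A10. In B+A10 against AOS0 8 of the 72 were higher, against 0.754% of all genes upward. In AOS10 against AOS0, 0 of the 72 passed in edgeR (6 at an unadjusted p under 0.05, 2 in DESeq2). The list of 9 other heat-inducible genes held 4 of these 6 and the 2 DESeq2 calls. Its log2 differences ran from -0.36 to 1.33, with 7 above 0 and 2 below. In B+A10 against B+A0, 0 passed in edgeR (9 at an unadjusted p under 0.05, 0 in DESeq2).

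None of the listed mitochondrial chaperones and proteases passed in any of these comparisons: edgeR called neither Hspd1 nor Hspe1, and 0 of the 11 others tested. In B+A0 against AOS0, 5 of the 11 had an unadjusted p under 0.05 and DESeq2 called 2; in B+A10 against AOS10 these counts were 2 and 0. Hspa9, the mitochondrial HSP70 mortalin, had 146 to 162 FPKM in AOS10 and 150 to 222 in B+A10, groups that overlapped, with a log2 difference of 0.19 (adjusted p = 0.654, edgeR). The median of the 11 genes was -0.02 in B+A10 against AOS10 and 0.14 in B+A0 against AOS0. Of 14 chaperones of the endoplasmic reticulum, which answer to a separate unfolded protein response, 2 rose in B+A10 against AOS10, against 0.146% of all genes upward: Creld2 by 0.73 and Hyou1 by 0.65 (adjusted p = 0.0332 each, edgeR). The list median was 0.39, above the 0.11 of the 72 other heat shock pathway genes. The 9 tested genes described here had 0.96, but they were picked with earlier results known. The HSP70 of that compartment, Hspa5 (BiP), had 266 to 314 FPKM in AOS10 and 346 to 529 in B+A10 without overlap, a log2 difference of 0.56 (adjusted p = 0.0946, edgeR). In B+A0 against AOS0, 9 of these 14 passed upward, against 1.7% of all genes, again a description only, since this list was made with earlier results known.

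**Figure D5:**
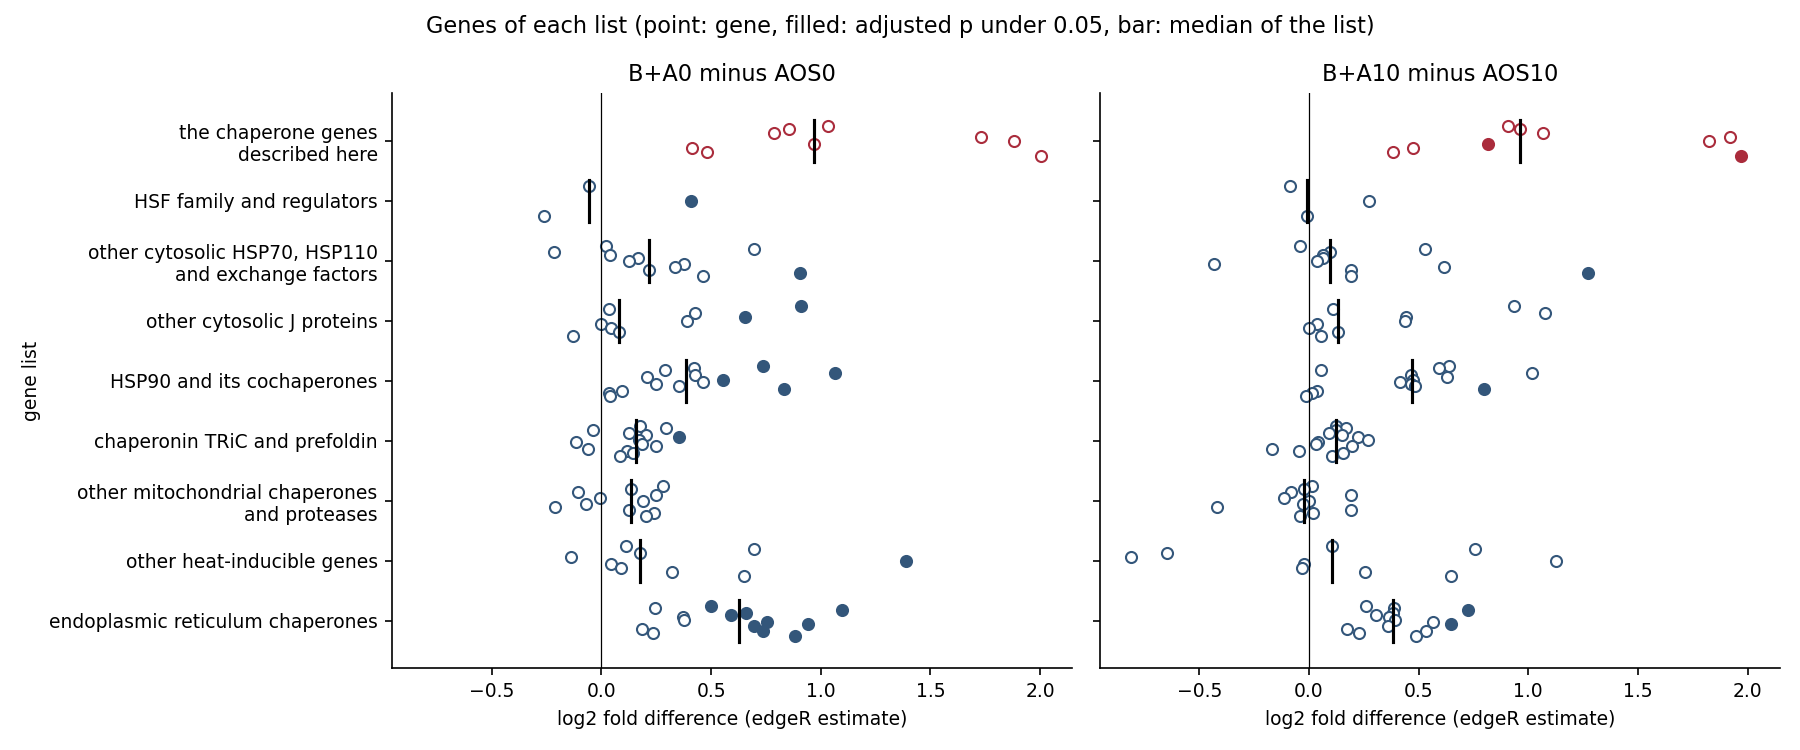
Log2 fold differences (horizontal axis, edgeR) of each tested gene, by list, in B+A0 minus AOS0 (left) and B+A10 minus AOS10 (right); filled points passed an adjusted p of 0.05, bars are list medians, and the genes described here are left unfilled on the left because they were chosen there. The HSP90 cochaperone median is 0.47 and the mitochondrial median -0.02 in B+A10 minus AOS10.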

How the data were processed

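Total RNA from 12 small intestine samples was sequenced and deposited as 1 table. The submitters' processing notes name genome build mm10. Which aligner, read counter, gene annotation and strandedness were used is not given in the sources used here. The deposited expected counts (read counts, per the file headers) carry no normalization by the authors; 8.90% to 9.33% of the values were not whole (tolerance 1e-06), so all were rounded. A further set of columns, deposited without a unit, was read as FPKM: for the 5071 genes above 500 counts throughout, dividing count by value tracked the library totals to within 0.149%. The 8 group-average columns were not used.

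Genes were kept by filterByExpr (12329), scaled by TMM (factors 0.969 to 1.05) and tested in 1 edgeR 4.0.16 quasi-likelihood model over all 12 libraries (R 4.3.3), with Benjamini-Hochberg adjustment over all tested genes at 0.05. CPM use TMM-scaled library sizes; SE is the log2 difference over the root of F. Each of the 9 tested members exceeded 50 CPM in every library, so none passed the filter through 1 group alone. Alternatives were leaving out each library, DESeq2 1.42.0 or its size factors, 2 other filters, a replicate block, fitting the compared groups alone, summing Hspa1a and Hspa1b, and limma 3.58.1 on log2(FPKM + 1). Replicate pairs differed beyond counting noise (chi-square per degree of freedom 8.28 to 35.4).

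The members and lists were chosen with earlier results of these data known. Named genes are all 10 members, Hsp90ab1, Hsf1, Hspa5, Hspa9, up to 3 genes per list with the smallest p in B+A0 against AOS0, and the 8 most alike by Pearson r; Vil1, Egr1 and Hspb6 were named after their values were seen. Not all genes named by the rule are described. The lists of B and plasma cell, macrophage and red blood cell markers had 3, 3 and 1 tested genes, of which 0 passed in B+A0 against AOS0 or B+A10 against AOS10 in edgeR (unadjusted p under 0.05: 1, 1 and 1, then 0, 1 and 0; DESeq2: 1, 0 and 1, then 0, 0 and 0). Coordinates are RefSeq GRCm38, matched by gene ID; promoter windows are RefSeq GRCm38.p6 and coding sequences GENCODE M21, aligned with Biopython 1.88. Figures were drawn with matplotlib 3.10.9.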

Additional observations from a re-analysis of the deposited data

How the results depend on the processing

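No alternative changed the sign of any of the 9 genes in B+A0 minus AOS0, B+A10 minus AOS10 or B+A10 minus AOS0 (0 of 178 values each; log2 differences of 0.30 to 2.23, 0.28 to 2.24 and 0.23 to 2.88). Signs changed in 7 of 178 values in AOS10 minus AOS0 (3 genes, all with estimates near 0), 11 of 178 in B+A10 minus B+A0 (5 genes) and 25 of 169 in the interaction (8 genes). For B+A10 minus AOS10, members called were 7 by DESeq2, 6 with no filter on low counts, 0 in the fit of the compared groups, 0 by limma and 0 with the replicate block (main count 2). Leaving out 1 library gave 2 to 8 members called in B+A0 minus AOS0 (2 when replicate 1 or 3 of AOS0 or replicate 3 of B+A0 was left out), 0 to 7 in B+A10 minus AOS10 and 2 to 7 in B+A10 minus AOS0 (3 without AOS0 replicate 1, 2 without AOS0 replicate 3). Over all genes, DESeq2 called 1025, 138, 63, 82, 463 and 17 in B+A0 minus AOS0, B+A10 minus AOS10, AOS10 minus AOS0, B+A10 minus B+A0, B+A10 minus AOS0 and the interaction, where edgeR called 449, 20, 0, 0, 118 and 0. Leaving out 1 library gave 21 to 1099, 0 to 61, 0 to 28, 0 to 51, 12 to 763 and 0 to 1. With no filter, B+A10 minus AOS10, AOS10 minus AOS0 and B+A10 minus B+A0 had 40, 8 and 5 calls. Fits of only the compared groups gave 241 in B+A0 minus AOS0, 0 in B+A10 minus AOS10, 62 in AOS10 minus AOS0 and 18 in B+A10 minus AOS0, and limma gave 2 in B+A10 minus AOS10. Of the 72 pathway genes, DESeq2 called 20 in B+A0 minus AOS0 and 15 in B+A10 minus AOS0, where edgeR called 10 and 8. The cause was not tested.

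Groups share replicate numbers, and no sign was seen that the numbers pair the samples, which does not exclude a pairing. Over 18 same-numbered pairs, the correlation of deviations from the group means was -0.162 to 0.173, and 1 was over 0.1. In 9 of 36 comparisons of a library with another group, the library correlated best with its own number. With the replicate block, 193 genes were called in B+A0 minus AOS0, 3 in B+A10 minus AOS10, 15 in AOS10 minus AOS0 and 4 in B+A10 minus B+A0, and members called were 4, 0, 0 and 0. With 13560232 to 16818245 counts a library, depth limits Hspb1, at 1 to 30 counts, and not the other 9 genes.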
